A study of Mus musculus with 6 samples.

Results

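The genes described here build ribosomes. They are a list of 50 named mouse genes of the nucleolus, out of 20756 genes measured. They comprise 7 genes of RNA polymerase I and its associated factors, 8 proteins of small nucleolar ribonucleoproteins (snoRNPs), 16 processing factors of the small ribosomal subunit, 16 of the large subunit and 3 abundant multifunctional nucleolar proteins. They were measured in mouse tumor organoids (MTOs), epithelial cultures grown from intestinal tumors, of the C57BL/6 strain. A CRISPR guide targeted Prkci in 3 libraries (sgPrkci, replicates 10, 11 and 12) and Prkcz in 3 libraries (sgPrkcz, replicates 13, 14 and 15), which encode the atypical kinases PKCλ/ι and PKCζ. All MTOs were untreated and grew in the same medium with EGF and B-27 supplement. The series calls the 3 libraries of a group biological replicates. Whether they came from separate clones, passages or infections was not given in the sources used here, so p-values measure only the spread between these libraries. No control-guide library was analysed here, and each difference below sets sgPrkci against sgPrkcz.

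The labels of the series define the groups. In 1 place the study's source data give these libraries the opposite names, under which all differences below would turn round. No measure was used here to settle this, and the targeted genes do not, because a small deletion need not change the tags at the 3′ end of a transcript: Prkci had 53.9, 56.5 and 46.9 CPM (reads scaled to a fixed total) in sgPrkci, against 72.3, 34.5 and 59.7 CPM in sgPrkcz, and Prkcz had 2.26, 3.27 and 4.62 CPM in sgPrkci, against 2.97, 5.02 and 2.93 CPM in sgPrkcz. The libraries held 2141125 to 2815760 reads in sgPrkci and 1593480 to 2696430 reads in sgPrkcz, where 1 read was worth 0.355 to 0.628 CPM. All 7 epithelial markers were detected, with a summed level of 3678 to 4081 CPM in sgPrkci and 4434 to 4737 CPM in sgPrkcz. Within that list Epcam (700.0 to 823.4 CPM in sgPrkci, against 519.6 to 586.3 CPM in sgPrkcz) and Vil1 (81.1 to 108.7 CPM, against 42.3 to 52.1 CPM) ran the other way, without overlap. Fibroblast markers (7 of 8 listed, Col1a2 and Col3a1 at 0 in all libraries) summed to 1.07 to 3.02 CPM in sgPrkci and 1.26 to 2.60 CPM in sgPrkcz, and endothelial markers (4 of 5 listed, Kdr at 0) stayed under 1 CPM. Immune markers (4 of 10 listed) summed to 12.6 to 21.1 CPM in sgPrkci and 7.61 to 11.1 CPM in sgPrkcz.

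A ribosome begins in the nucleolus, where RNA polymerase I copies the ribosomal DNA into 1 long precursor. Box C/D snoRNPs guide methylation of that precursor and box H/ACA snoRNPs guide its pseudouridylation, while successive sets of processing factors cut and fold it into a small and a large subunit. Rapidly dividing epithelial and tumor cells are known for large nucleoli, and many of these genes are known targets of MYC.

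The transcripts of this machinery were lower in sgPrkci MTOs almost throughout. Of the 50 genes 49 had at least 5 CPM in at least 3 libraries and were fitted, and of these 44 were lower in sgPrkci and 0 were higher (limma with an intensity trend on log2(CPM + 1), Benjamini-Hochberg adjusted p under 0.05 over 9558 genes). All 49 log2 fold changes lay below 0 in this fit, so no looser threshold could add a gene to the count higher. That count was also 0 with edgeR and with DESeq2. Over all fitted genes 26.5% were lower and 14.4% higher in sgPrkci. Differences past -1 on the log2 scale were found in 19 of the 49 genes, against 4.45% of all fitted genes. The median log2 fold change was -0.86 over the 49 genes, with a range of -1.72 to -0.03, and -0.11 over all fitted genes. Rescaling by TMM factors moved the median of all genes to 0.0016 and that of the 49 genes to -0.75. With that scaling 42 of the 49 genes were lower, against 19.8% of all fitted genes. On the recovered reads edgeR called 43 of them lower, against 20.2% of all fitted genes, and DESeq2 35, against 14.1%. Together the 50 genes took 3280, 3351 and 3195 CPM in sgPrkci, against 6064, 6590 and 6277 CPM in sgPrkcz. The groups did not overlap in this sum, and each stayed within a narrow range.

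**Figure D1:**
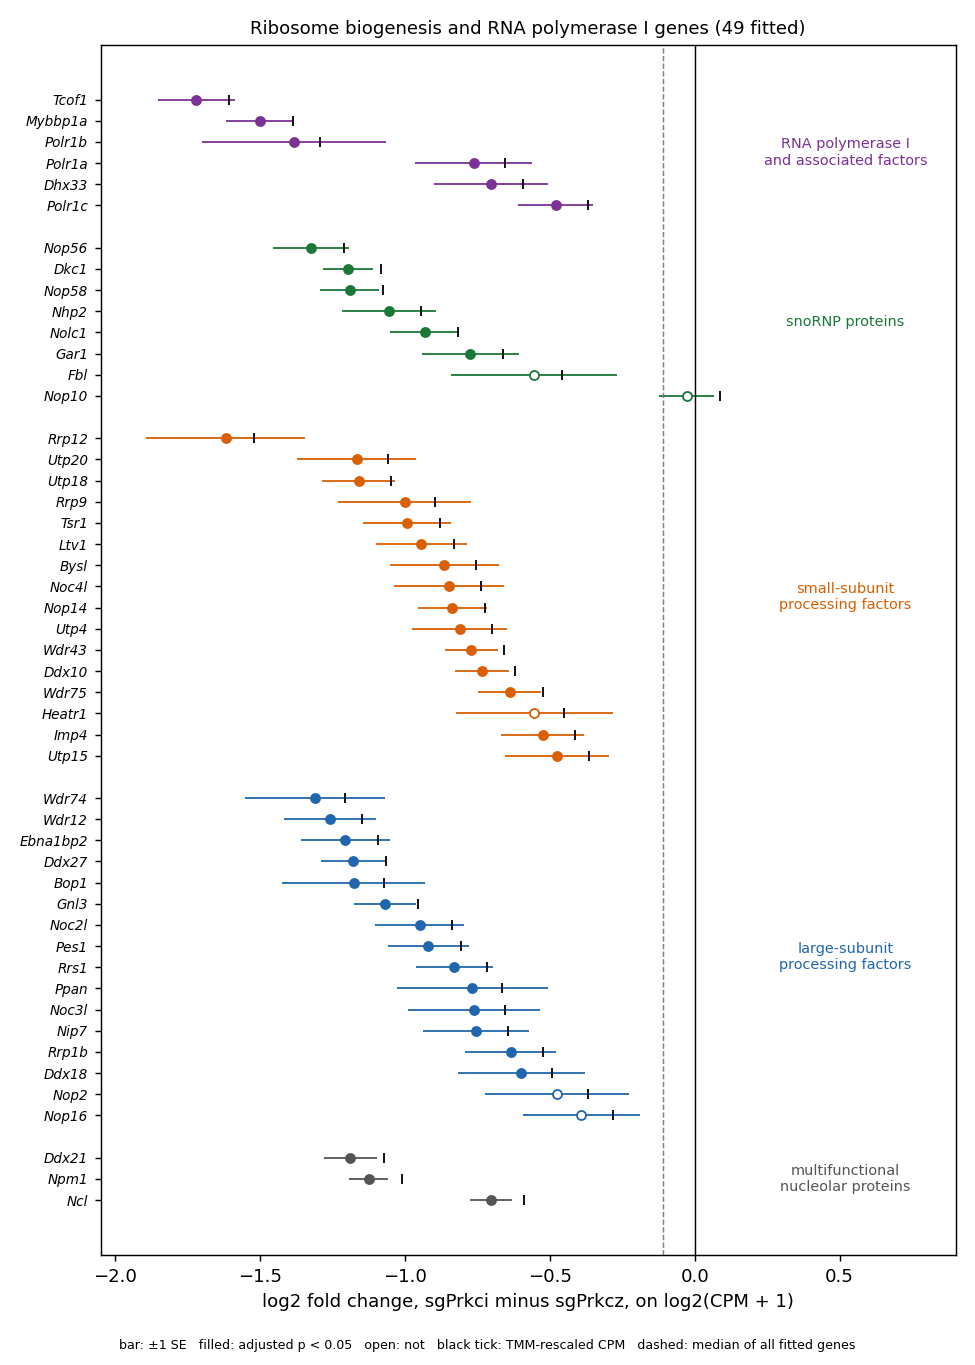
Log2 fold change (sgPrkci minus sgPrkcz, on log2(CPM + 1), horizontal axis) of the 49 fitted genes by role, with bars of 1 SE, filled points for the 44 genes with an adjusted p under 0.05 and black ticks for the value on TMM-rescaled CPM. All points lie left of 0, and Nop10 alone has a tick to the right of it.

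In 44 of the 49 genes the highest sgPrkci library was below the lowest sgPrkcz library, which held for 31.8% of all fitted genes. The same gap in the other direction was found in 0 of the 49 genes, against 18.2% of all fitted genes. Not all of these 44 are the genes called by limma, since Heatr1 did not overlap and missed the threshold whereas Utp15 overlapped and passed. Polr1b was the only gene that reached 5 CPM in all sgPrkcz libraries and in no sgPrkci library, so it entered the fit only through the group in which it was high. The spread within groups was like that of other genes, with a median SD of 0.19 on the log2 scale over the 49 genes and 0.18 over all fitted genes. Reads are from bulk cultures, where fewer cells with active nucleoli and less of each RNA per cell cannot be told apart.

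**Figure D2:**
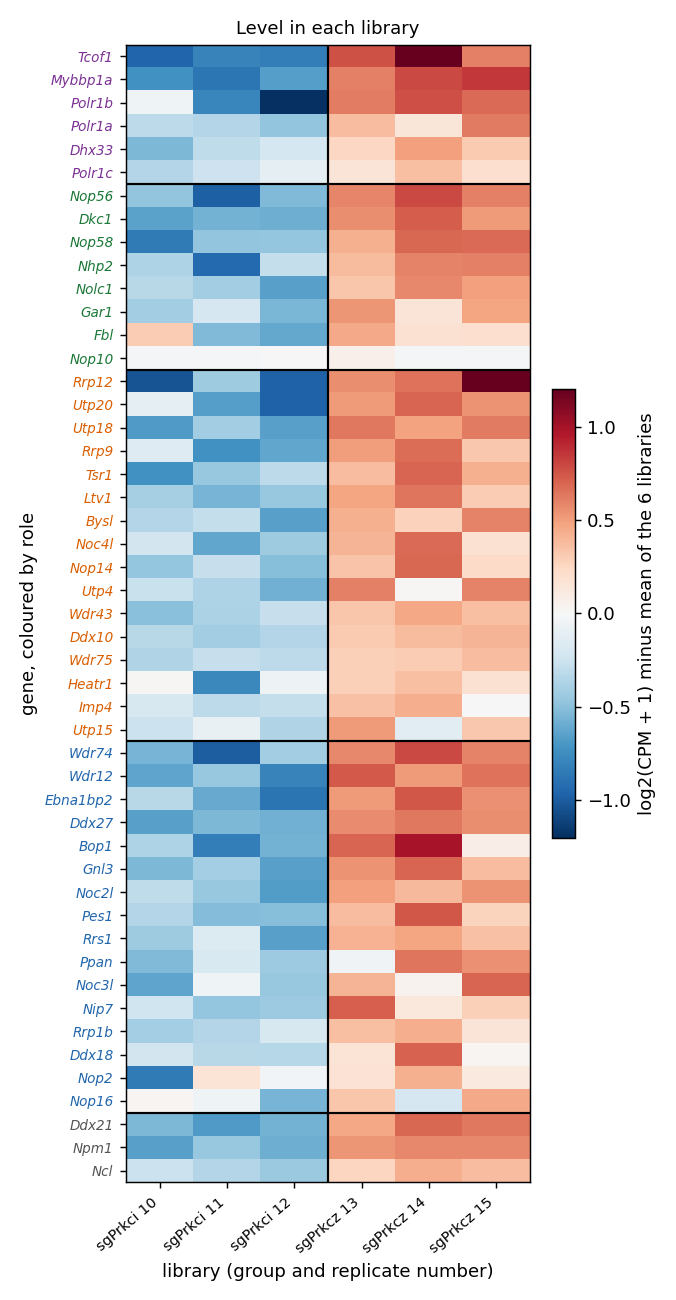
Level of each of the 49 genes in each library (log2(CPM + 1) minus the mean of the 6 libraries, colour scale capped at its ends), with the sgPrkci libraries to the left of the line and genes grouped by role. The 3 sgPrkci columns are blue and the 3 sgPrkcz columns red for nearly all genes, while Nop10 is near white throughout.

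Transcription of ribosomal DNA came first. All 6 fitted genes of RNA polymerase I and its associated factors were lower in sgPrkci, against 26.5% of all fitted genes. The median log2 fold change of the 6 genes was -1.07. Polr1b entered the fit only through sgPrkcz, where it was high. A filter of 10 CPM leaves it out and gave a median of -0.76. The lowest log2 fold change of the 49 genes, on log2(CPM + 1), belonged to Tcof1, which encodes treacle, a nucleolar scaffold for RNA polymerase I whose human counterpart is mutated in Treacher Collins syndrome (ENSMUSG00000024613, GRCm38 chromosome 18, 60813755 to 60848971, minus strand). Tcof1 had 33.6, 37.4 and 36.6 CPM in sgPrkci, against 112.7, 153.1 and 100.6 CPM in sgPrkcz (adjusted p = 1.09e-09, log2 fold change -1.72 ± 0.13 SE). The sgPrkcz libraries differed among themselves by more than the sgPrkci libraries did, yet the lowest of them was far above the highest sgPrkci library.

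Mybbp1a, a nucleolar protein that binds MYB and associates with the ribosomal DNA machinery (ENSMUSG00000040463, chromosome 11, 72441355 to 72451768, plus strand), showed nearly as wide a gap. It had 40.4, 36.4 and 42.3 CPM in sgPrkci, against 103.1, 117.4 and 122.3 CPM in sgPrkcz (adjusted p = 8.88e-10, log2 fold change -1.50 ± 0.12 SE). The polymerase's own subunits differed less evenly. Polr1c, which RNA polymerases I and III share (ENSMUSG00000067148, chromosome 17, 46243920 to 46248054, minus strand), had the smallest change of the list, with 35.5, 38.3 and 41.9 CPM in sgPrkci, against 50.8, 59.0 and 52.7 CPM in sgPrkcz (adjusted p = 0.00517, log2 fold change -0.48 ± 0.13 SE).

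Of the subunits particular to RNA polymerase I, the catalytic subunit gene Polr1a had a log2 fold change of -0.76 ± 0.20 (SE). Polr1b, the second-largest subunit, had one of -1.38 ± 0.32 (SE) on only 4 to 12 reads per library in sgPrkci and 14 to 21 reads in sgPrkcz. Polr1e did not reach the filter. It had 3.77, 1.87 and 3.55 CPM in sgPrkci, against 3.34, 5.02 and 4.68 CPM in sgPrkcz, and its groups overlapped. The helicase gene Dhx33 had a log2 fold change of -0.70. Polr1a, Polr1c and Dhx33 were not called by DESeq2 on the recovered reads (adjusted p = 0.0573, 0.122 and 0.1), which left 3 of the 6 genes lower. With a pseudocount of 10 the median of the list moved to -0.51. With a filter of 10 CPM, which leaves out Polr1b, 5 of 5 genes were lower and the median was -0.76.

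**Figure D3:**
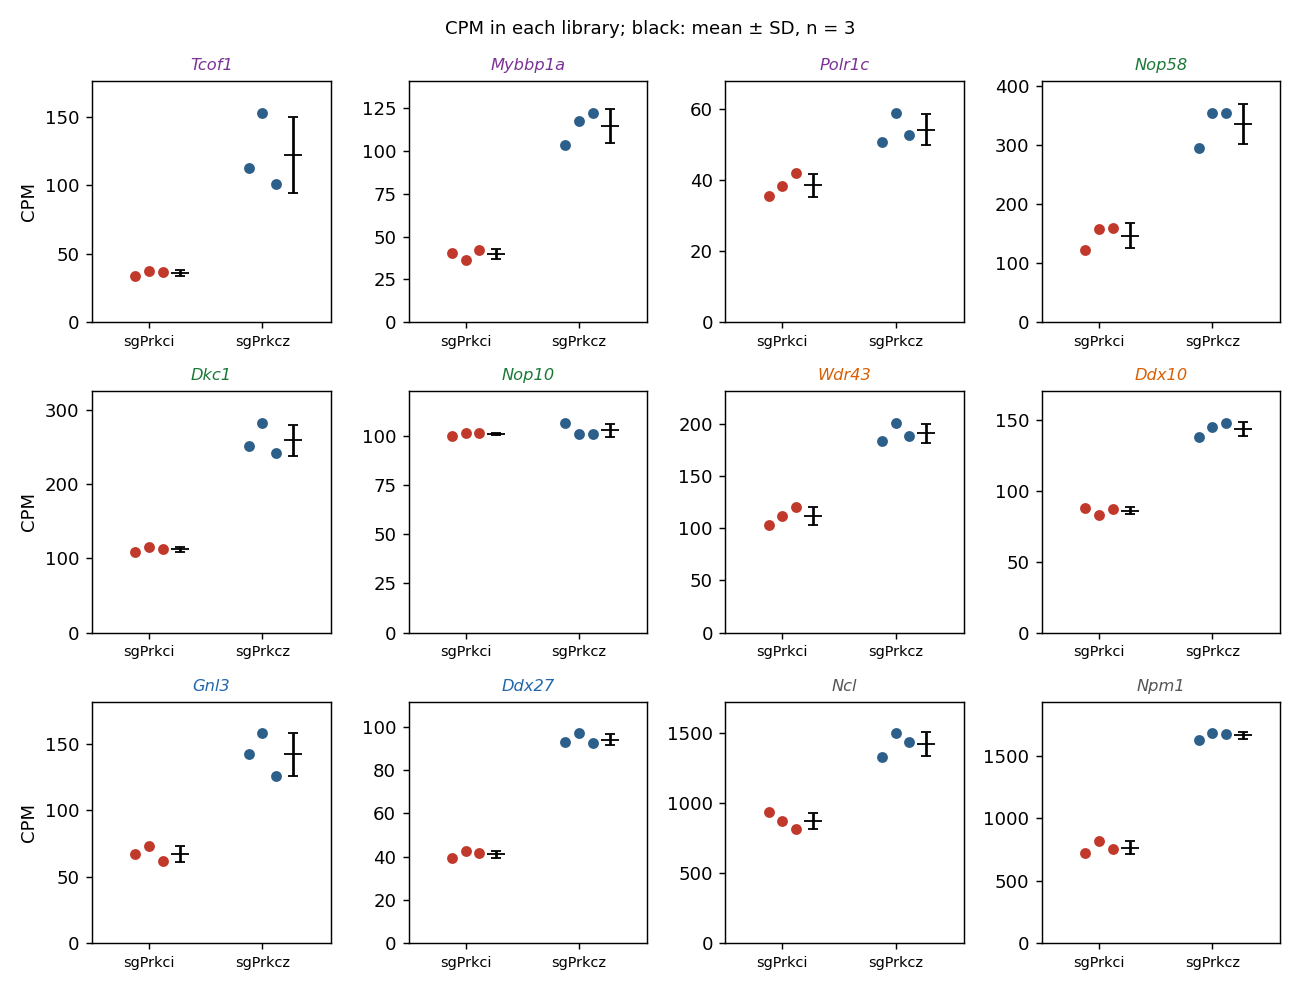
CPM in each library (points) with mean ± SD of 3 libraries (black) for 12 genes across the 5 roles, sgPrkci left and sgPrkcz right, each panel from 0. In 11 panels the groups are apart, and for Nop10 they overlap near 100 CPM.

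Most snoRNP proteins were lower, and only Nop10 showed nearly no difference. Of 8 genes 6 were lower in sgPrkci, against 26.5% of all fitted genes. The list median was -0.99, and Nop10 and Fbl did not pass. Among the core proteins of box C/D snoRNPs, Nop56 (ENSMUSG00000027405, chromosome 2, 130274430 to 130279313, plus strand) had 44.9, 31.3 and 43.3 CPM in sgPrkci, against 94.9, 109.8 and 96.0 CPM in sgPrkcz (adjusted p = 5.24e-08, log2 fold change -1.32 ± 0.13 SE). Its partner Nop58 (ENSMUSG00000026020, chromosome 1, 59684971 to 59719044, plus strand) had 121.8, 158.8 and 159.8 CPM in sgPrkci, against 295.9, 355.2 and 354.0 CPM in sgPrkcz (adjusted p = 4.63e-09, log2 fold change -1.19 ± 0.10 SE). In both the groups were well apart.

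Fbl, the methyltransferase of the same particles, was hardly covered by 3′ tags. It had 8.30, 4.20 and 3.91 CPM in sgPrkci, against 9.27, 7.53 and 7.61 CPM in sgPrkcz. Behind these values stood 9 to 22 reads per library in sgPrkci and 12 to 25 in sgPrkcz (adjusted p = 0.127, log2 fold change -0.56 ± 0.29 SE). Without sgPrkci replicate 10, the highest of its group, the adjusted p was 0.0369 (log2 fold change -0.85).

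In the box H/ACA particle, the pseudouridine synthase gene Dkc1 (ENSMUSG00000031403, chromosome X, 75095854 to 75109777, plus strand) had 109.0, 114.9 and 113.3 CPM in sgPrkci, against 252.2, 283.0 and 242.8 CPM in sgPrkcz (adjusted p = 3.72e-10, log2 fold change -1.196 ± 0.087 SE). The particle's other core genes Nhp2 and Gar1 had log2 fold changes of -1.06 ± 0.16 and -0.77 ± 0.17 (SE). The smallest core protein, Nop10 (ENSMUSG00000027133, chromosome 2, 112261926 to 112263269, plus strand), had 100.3, 101.3 and 101.6 CPM in sgPrkci, against 106.8, 101.0 and 101.2 CPM in sgPrkcz (adjusted p = 0.843, log2 fold change -0.027 ± 0.095 SE). Its groups overlapped, and the sign of its difference turned with the scaling (0.088 on TMM-rescaled CPM, not called).

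Within a library the ratio of Nop10 to Dkc1 tags does not depend on the scaling. It was 0.92, 0.88 and 0.90 in sgPrkci, against 0.42, 0.36 and 0.42 in sgPrkcz (exact permutation p = 0.1, 2-sided, the smallest that 3 against 3 libraries allow). The ratio thus lay near 0.90 in every sgPrkci library and near 0.40 in every sgPrkcz library. Nop56 over Nop58, partners in the box C/D particle, showed no such gap, with 0.37, 0.20 and 0.27 in sgPrkci and 0.32, 0.31 and 0.27 in sgPrkcz (exact permutation p = 0.8). These pairs, and that of Npm1 and Ncl below, are 3 of 4 ratios computed, were chosen after their values were seen, and are ratios of tag counts that are not divided by transcript length. Nolc1, a chaperone of both particle classes, had a log2 fold change of -0.93 ± 0.12 (SE).

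**Figure D4:**
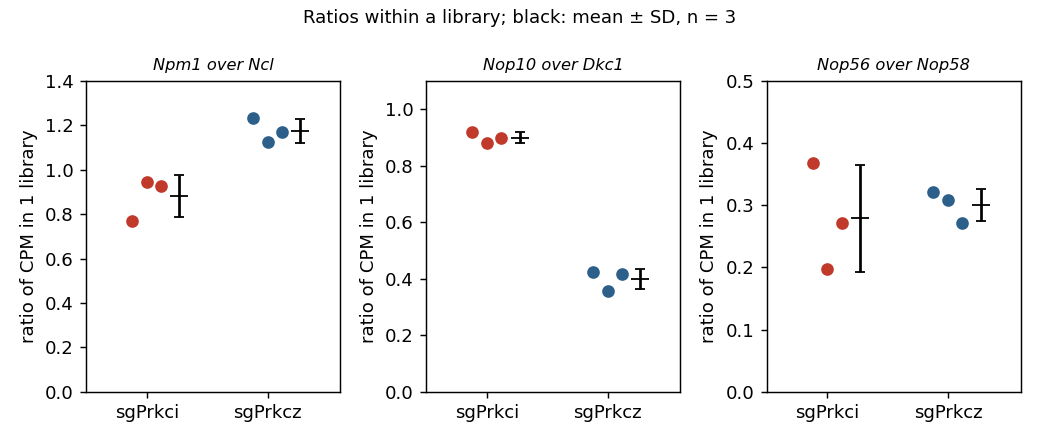
Ratios of 2 genes' CPM within a library (points; black, mean ± SD of 3 libraries), sgPrkci left and sgPrkcz right, each panel from 0. Npm1 over Ncl is below 1 in the sgPrkci libraries and above 1 in the sgPrkcz libraries, Nop10 over Dkc1 is near 0.90 and 0.40, and Nop56 over Nop58 overlaps.

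Processing factors of the small subunit were lower in 15 of 16 genes, against 26.5% of all fitted genes. Their log2 fold changes ran from -1.62 to -0.48, with a median of -0.84. The best covered was Wdr43, a factor that joins the precursor early (ENSMUSG00000041057, chromosome 17, 71615895 to 71659031, plus strand), with 102.6, 111.6 and 120.0 CPM in sgPrkci, against 183.2, 200.8 and 187.8 CPM in sgPrkcz (adjusted p = 6.03e-07, log2 fold change -0.77 ± 0.091 SE). The helicase gene Ddx10 (ENSMUSG00000053289, chromosome 9, 53098635 to 53248053, minus strand) had 87.9, 83.1 and 87.0 CPM in sgPrkci, against 138.3, 145.0 and 148.0 CPM in sgPrkcz (adjusted p = 1.57e-06, log2 fold change -0.73 ± 0.093 SE). Nop14, a factor of the same early particle (ENSMUSG00000036693, chromosome 5, 34638536 to 34660148, minus strand), had 62.2, 71.0 and 60.02 CPM in sgPrkci, against 109.4, 139.3 and 101.2 CPM in sgPrkcz (adjusted p = 6.97e-06, log2 fold change -0.84 ± 0.12 SE). In all 3 genes the groups were apart.

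The extremes of the list rested on fewer reads. Rrp12, which acts in maturation and export of subunits (ENSMUSG00000035049, chromosome 19, 41862851 to 41896173, minus strand), had the lowest log2 fold change, with 3.02, 5.14 and 3.20 CPM in sgPrkci, against 11.1, 11.9 and 18.1 CPM in sgPrkcz (-1.62 ± 0.27 SE, adjusted p = 5.96e-05), on 8 to 11 and 19 to 31 reads per library. By the means of CPM its level in sgPrkci was 27.6% of that in sgPrkcz, against 29.3% for Tcof1, as adding 1 to the CPM shrinks differences of low genes. Utp15, of the group of early factors also needed for ribosomal DNA transcription, had the highest, with 21.1, 23.8 and 19.5 CPM in sgPrkci, against 36.7, 23.2 and 32.2 CPM in sgPrkcz (-0.48 ± 0.18 SE, adjusted p = 0.0384). Its groups overlapped through sgPrkcz replicate 14, and the call was lost on TMM-rescaled CPM (adjusted p = 0.107) and without sgPrkci replicate 10, sgPrkci replicate 12, sgPrkcz replicate 13 or sgPrkcz replicate 15 (adjusted p = 0.0963, 0.124, 0.19 and 0.0993). Heatr1, of the same early group, did not pass, with 7.17, 3.74 and 6.75 CPM in sgPrkci, against 8.90, 9.41 and 8.19 CPM in sgPrkcz (-0.55 ± 0.27 SE, adjusted p = 0.108).

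Utp4 and Wdr75, also of that early group, had log2 fold changes of -0.81 and -0.64. Utp18 of the next module, Utp20, which binds the precursor's small-subunit domain, and Rrp9 of the U3 snoRNP had -1.16, -1.17 and -1.001, and Imp4 of the U3 snoRNP had -0.53. Bysl, Ltv1 and Tsr1, which act on later small-subunit particles, had -0.86, -0.94 and -0.99, and Noc4l, a partner of Nop14, had -0.85. Of these genes Imp4 was not called by DESeq2 (adjusted p = 0.0783).

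Processing factors of the large subunit were lower in 14 of 16 genes, against 26.5% of all fitted genes. The log2 fold changes of the 16 ran from -1.31 to -0.39, with a median of -0.87. Gnl3, or nucleostemin, a GTP-binding nucleolar protein abundant in stem and tumor cells (ENSMUSG00000042354, chromosome 14, 31012433 to 31019152, minus strand), had 66.8, 72.9 and 61.4 CPM in sgPrkci, against 142.0, 158.1 and 125.8 CPM in sgPrkcz (adjusted p = 5.65e-08, log2 fold change -1.07 ± 0.11 SE). The helicase gene Ddx27 (ENSMUSG00000017999, chromosome 2, 167015193 to 167034947, plus strand) had 39.2, 42.5 and 41.6 CPM in sgPrkci, against 93.1, 97.3 and 92.4 CPM in sgPrkcz (adjusted p = 2.42e-08, log2 fold change -1.18 ± 0.11 SE). Rrs1, which helps to bring 5S RNA into the particle (ENSMUSG00000061024, chromosome 1, 9545408 to 9547455, plus strand), had 38.9, 46.7 and 33.0 CPM in sgPrkci, against 70.5, 73.4 and 67.3 CPM in sgPrkcz (adjusted p = 2.98e-05, log2 fold change -0.83 ± 0.13 SE). None of these groups overlapped.

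Wdr74, a factor of the nucleolar large-subunit particle (ENSMUSG00000042729, chromosome 19, 8735827 to 8740624, plus strand), had the lowest log2 fold change of this list, with 6.03, 4.20 and 6.75 CPM in sgPrkci, against 14.5, 16.9 and 14.6 CPM in sgPrkcz (-1.31 ± 0.24 SE, adjusted p = 0.000146). Nop16, a large-subunit factor known as a MYC target, had the highest, with 22.3, 21.0 and 14.6 CPM in sgPrkci, against 27.8, 18.8 and 30.4 CPM in sgPrkcz (-0.39 ± 0.20 SE, adjusted p = 0.131). Its groups overlapped through sgPrkcz replicate 14, without which the adjusted p was 0.0266 (-0.59). Nop2, a methyltransferase of large-subunit RNA, did not pass either, with 6.41, 14.01 and 12.1 CPM in sgPrkci, against 14.1, 16.9 and 13.5 CPM in sgPrkcz (-0.48 ± 0.25 SE, adjusted p = 0.133).

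Pes1, Bop1 and Wdr12 form a single complex, and their log2 fold changes were -0.92 ± 0.14, -1.18 ± 0.25 and -1.26 ± 0.16 (SE). The large-subunit factors Ebna1bp2, Noc2l, Nip7 and Rrp1b had -1.21, -0.95, -0.75 and -0.63. Noc3l, Ppan and the helicase gene Ddx18 had -0.76, -0.77 and -0.60, and their calls were the least stable. Noc3l lost its call without sgPrkci replicate 10 or sgPrkcz replicate 15 (adjusted p = 0.0589 and 0.0608), and Ppan without sgPrkci replicate 10, sgPrkci replicate 12, sgPrkcz replicate 14 or sgPrkcz replicate 15 (adjusted p = 0.0766, 0.0593, 0.0935 and 0.0733). Ddx18 lost its call on TMM-rescaled CPM (adjusted p = 0.0757) and without any one of the sgPrkci libraries or sgPrkcz replicate 14 (adjusted p = 0.0591 to 0.185).

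Set side by side, the small- and large-subunit factors had median log2 fold changes of -0.84 and -0.87, which differed by 0.032, and 4 small-subunit and 6 large-subunit genes lay beyond -1. The summed level of the 16 small-subunit genes was 536, 544 and 532 CPM in sgPrkci, against 942, 988 and 939 CPM in sgPrkcz, and that of the 16 large-subunit genes was 363, 376 and 332 CPM in sgPrkci, against 705, 744 and 668 CPM in sgPrkcz. When the median of each list was taken in each library relative to the mean of the 6 libraries, the small-subunit median minus the large-subunit median was 0.074, 0.017 and 0.090 in sgPrkci, against -0.041, -0.100 and -0.047 in sgPrkcz on the log2 scale. The groups did not overlap in this value, whose means were 0.061 in sgPrkci and -0.062 in sgPrkcz. Means of opposite sign and like size follow from setting each gene against the mean of the 6 libraries. The gap between the means is another measure than the 0.032 above, and is larger. No test was made of this value, as the genes were chosen with results known. Without sgPrkci replicate 12 the difference of the 2 medians of fold changes was -0.012, and without sgPrkcz replicate 14 it was 0.11.

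**Figure D5:**
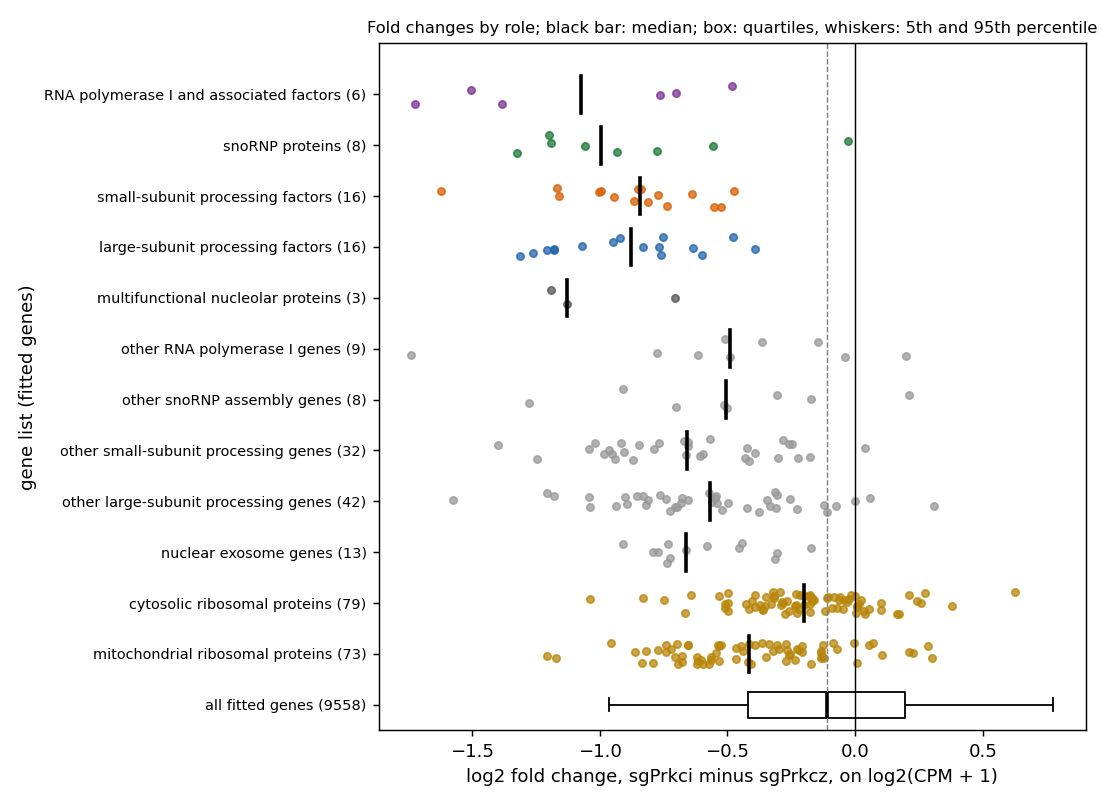
Log2 fold changes (sgPrkci minus sgPrkcz, horizontal axis) of the fitted genes of each list, with black bars for medians and a box (quartiles, whiskers at the 5th and 95th percentiles) for all 9558 fitted genes. The medians of the small- and large-subunit factors are -0.84 and -0.87, the other lists of the pathway lie between -0.66 and -0.49, and that of all genes is at -0.11.

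The 3 multifunctional nucleolar proteins carried most of the tags, and all were lower in sgPrkci, against 26.5% of all fitted genes. Npm1, or nucleophosmin, a histone and ribosome chaperone (ENSMUSG00000057113, chromosome 11, 33152287 to 33163206, minus strand), had 717.7, 821.1 and 752.2 CPM in sgPrkci, against 1632, 1684 and 1678 CPM in sgPrkcz (adjusted p = 1.58e-11, log2 fold change -1.13 ± 0.068 SE). Ncl, or nucleolin, which binds the precursor RNA (ENSMUSG00000026234, chromosome 1, 86344719 to 86359400, minus strand), had 930.8, 869.2 and 812.2 CPM in sgPrkci, against 1325, 1498 and 1432 CPM in sgPrkcz (adjusted p = 6.50e-08, log2 fold change -0.70 ± 0.071 SE). Ddx21, a helicase that links RNA polymerase I transcription and processing (ENSMUSG00000020075, chromosome 10, 62580251 to 62602281, minus strand), had 103.7, 93.9 and 101.6 CPM in sgPrkci, against 208.4, 244.1 and 234.1 CPM in sgPrkcz (adjusted p = 9.12e-10, log2 fold change -1.19 ± 0.091 SE).

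The order of the tags of Npm1 and Ncl differed between the groups. Npm1 over Ncl was 0.77, 0.94 and 0.93 in sgPrkci, against 1.23, 1.12 and 1.17 in sgPrkcz (exact permutation p = 0.1, again the smallest), so Ncl had more tags in all sgPrkci libraries and Npm1 in all sgPrkcz libraries. Npm1 has processed pseudogenes, between which and the gene the authors' counting could split reads, and its values are uncertain to that extent.

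Genes of the same pathway outside the list moved mostly in the same direction and by less. The lists were chosen with earlier results of these data known, and this gap was not tested. Of 113 further genes, 104 were fitted, and 75 were lower and 1 higher in sgPrkci, around a median log2 fold change of -0.60. Over all fitted genes 26.5% were lower and 14.4% higher. Of other RNA polymerase I genes 5 of 9 were lower, with a median of -0.49. Polr1d ran the other way without overlap, though it was not called (limma adjusted p = 0.0592, log2 fold change 0.20 ± 0.083 SE). It had 216.9, 219.0 and 205.3 CPM in sgPrkci, against 194.7, 174.5 and 189.6 CPM in sgPrkcz. On TMM-rescaled CPM, with edgeR and with DESeq2, 1 gene of this list was higher. The polymerase subunit gene Cd3eap had a log2 fold change of -1.74 ± 0.22 (SE), with 6.41, 5.60 and 6.39 CPM in sgPrkci, against 21.1, 26.4 and 21.1 CPM in sgPrkcz. Twistnb, another subunit gene, and Taf1d, of the selectivity factor SL1, had log2 fold changes of -0.77 ± 0.12 and -0.51 ± 0.10 (SE).

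Of other snoRNP assembly genes 4 of 8 were lower, against 26.5% of all fitted genes, with a median of -0.51. The assembly factor genes Znhit6, Znhit3 and Naf1 had log2 fold changes of -1.28 ± 0.19, -0.91 ± 0.23 and -0.50 ± 0.14 (SE). Of other small-subunit processing genes 25 of 32 were lower, with a median of -0.66, among them Mphosph10, Dcaf13 and Wdr3 of the early small-subunit particle at -1.24 ± 0.11, -0.95 ± 0.12 and -0.96 ± 0.13 (SE). Of other large-subunit processing genes 31 of 42 were lower and 1 was higher, with a median of -0.57. The methyltransferase gene Ftsj3 had -1.57 ± 0.13 (SE), with 32.8, 42.5 and 47.6 CPM in sgPrkci, against 107.6, 137.4 and 124.6 CPM in sgPrkcz, and the large-subunit factor genes Mak16 and Gtpbp4 had -1.18 ± 0.12 and -0.86 ± 0.081 (SE).

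The gene that was higher was Nvl, an ATPase of large-subunit assembly, with 62.6, 78.0 and 67.8 CPM in sgPrkci, against 56.4, 55.9 and 55.0 CPM in sgPrkcz (adjusted p = 0.0403, log2 fold change 0.31 ± 0.12 SE). Of nuclear exosome genes, which trim the precursor, 10 of 13 were lower, against 26.5% of all fitted genes, with a median of -0.66. Among them were the nuclease gene Dis3, the helicase gene Mtrex and Mphosph6 at -0.91 ± 0.14, -0.66 ± 0.11 and -0.74 ± 0.14 (SE). DESeq2 called 46 of the further genes lower and 2 higher, where it called 14.1% of all fitted genes lower.

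The genes of the finished ribosome differed less. Of 79 fitted cytosolic ribosomal protein genes 37 were lower and 7 higher in sgPrkci (median log2 fold change -0.20), and on TMM-rescaled CPM 21 were lower and 10 higher, with a median of -0.084. Of 73 mitochondrial ribosomal protein genes 37 (50.7%) were lower and 0 higher in the main fit, with a median of -0.42. The cytosolic ribosomal protein genes summed to 36387 CPM on average in sgPrkci and 41485 CPM in sgPrkcz.

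Other measures were also compared between the groups, and they did not all differ in the same direction. A list of 23 proliferation genes summed to 2795, 2910 and 2835 CPM in sgPrkci, against 4720, 4980 and 4658 CPM in sgPrkcz. Of the 23 genes 22 were lower, against 26.5% of all fitted genes, with a median log2 fold change of -0.65. Ribosomal RNA-like tags (Gm42418, mt-Rnr1 and mt-Rnr2) made up 21.2 to 24.0% of reads in sgPrkci and 17.6 to 19.4% in sgPrkcz, and with these genes left out before scaling 42 of the 49 genes were lower, against 21.5% of the genes fitted on that scale. Malat1, a nuclear RNA, made up 1.32 to 1.43% of reads in sgPrkci and 0.920 to 0.998% in sgPrkcz. Myc itself had 24.5, 31.8 and 15.3 CPM in sgPrkci, against 29.7, 23.2 and 19.3 CPM in sgPrkcz, and its groups overlapped. Mycl, of the same family, had 12.4, 11.2 and 4.97 CPM in sgPrkci, against 6.30, 7.53 and 2.93 CPM in sgPrkcz, and its groups overlapped. Max, the DNA-binding partner of MYC, had 159.5, 156.0 and 130.3 CPM in sgPrkci, against 228.8, 188.3 and 229.4 CPM in sgPrkcz, and its groups did not overlap. The part that any of these has in the lower levels was not tested.

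Several of the genes also contain snoRNA genes, which in general are cut from the introns of the host transcript. Of the 50 genes 8 contain 23 annotated snoRNA genes between them (16%, against 2.26% of all fitted genes), namely Nop56, Nop58, Dkc1, Wdr43, Tsr1, Gnl3, Ppan and Ncl. Nop56 holds Snord110 (chromosome 2, 130275506 to 130275573) and Snord57 (130278016 to 130278087) among its 5, and Nop58 holds Snord70 (chromosome 1, 59691934 to 59692020) and Snord11 (59704790 to 59704873) among its 4. By the annotation some of the 23 lie inside an exon of the host, Snord57 among them, while Snord110, Snord70 and Snord11 do not. The log2 fold changes of the 8 hosts ranged from -1.32 to -0.70 with a median of -1.03, and the other 41 fitted genes had a median of -0.85, with a range of -1.72 to -0.03. The snoRNAs themselves are not polyadenylated and were not analysed here.

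Promoters were searched for 3 motifs on both strands, in the window from 250 before to 50 after the start site (RefSeq, GRCm38.p6). They were at hand for 44 of the 50 genes, which were searched whether or not they were called lower. CACGTG, the E-box bound by MYC and related factors, was in 11 of the 44 (25.0%), against 12.5% of fitted genes and 8.09% of all genes with a promoter sequence. CCGGAAGT, a core bound by ETS family factors, was in 14 of the 44 (31.8%), against 10.7% of fitted genes and 4.31% of all genes. GCGCATGC, a core bound by NRF1, was in 1 of the 44 (2.27%), against 6.51% of fitted genes and 3.05% of all genes. None of the motifs contains another, and 3 genes (Ltv1, Tsr1 and Utp4) held both of the first pair.

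The E-box lay wholly before the start site in 4 genes, and the windows of all 4 are shown. The motif is in capitals, and coordinates are on GRCm38.p6.
Utp18 (chr11:93885767-93885813, minus strand, motif from position -20): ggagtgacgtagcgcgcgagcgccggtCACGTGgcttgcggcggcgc
Dhx33 (chr11:71004435-71004494, minus strand, motif from position -35): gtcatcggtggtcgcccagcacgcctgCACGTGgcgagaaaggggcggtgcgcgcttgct
Imp4 (chr1:34439681-34439740, plus strand, motif from position -121): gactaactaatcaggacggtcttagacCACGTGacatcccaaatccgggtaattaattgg
Nop2 (chr6:125131796-125131855, plus strand, motif from position -60): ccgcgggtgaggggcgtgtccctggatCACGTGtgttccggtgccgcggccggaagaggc

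In the other 7 genes, among them Mybbp1a, Pes1, Wdr43 and Tsr1, the E-box lay at or after the start. The log2 fold changes of the 4 genes shown were -1.16, -0.70, -0.53 and -0.48, and Nop2 did not pass. Genes with an E-box (11) had log2 fold changes with a median of -0.92 and the 32 fitted genes with a promoter sequence and no E-box had one of -0.84, while over all fitted genes the medians were -0.11 both with the motif (933 genes) and without it (6548 genes).

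The ETS core is shown for the 4 genes with the lowest log2 fold change that hold it wholly before the start site, a choice made after the shares were seen. It stands in capitals, as CCGGAAGT or, where it is on the opposite strand, as ACTTCCGG.
Wdr74 (chr19:8735786-8735838, plus strand, motif from position -27): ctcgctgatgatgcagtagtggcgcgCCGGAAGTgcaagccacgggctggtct
Nhp2 (chr11:51619724-51619772, plus strand, motif from position -23): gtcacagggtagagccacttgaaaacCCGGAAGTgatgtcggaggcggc
Ltv1 (chr10:13193160-13193219, minus strand, motif from position -56): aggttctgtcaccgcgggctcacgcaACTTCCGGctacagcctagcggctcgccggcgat
Utp4 (chr8:106893594-106893639, plus strand, motifs from positions -44 and -20): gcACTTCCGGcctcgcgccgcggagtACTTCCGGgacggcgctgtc

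In 3 of these windows the core lay within 50 bases of the start site, and Utp4 held it at both positions on the opposite strand. Ltv1 held another copy from position -98 on the same strand, outside its window. Gar1, Nip7, Heatr1 and Polr1c also held the core wholly before the start site. Their log2 fold changes were -0.77, -0.75, -0.55 and -0.48, and Heatr1 did not pass. A match is a description of letters, and occupancy of these promoters was not analysed here.

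In 10 of the 50 genes an exon of another gene lies within the last 500 bases at the 3′ end, where these tags fall. They are Mybbp1a (Spns2), Nop56 (Idh3b), Dkc1 (Mpp1), Nhp2 (Rmnd5b), Bysl (Ccnd3), Heatr1 (Lgals8), Tsr1 (Srr), Bop1 (Mroh1), Noc2l (Samd11) and Polr1e (Fbxo10). Whether the counting used strand was not given in the sources used here, so the values of these genes are uncertain to the extent of their neighbours' reads.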

How the data were processed

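Total RNA of 6 MTO libraries (3 sgPrkci, 3 sgPrkcz) was converted to QuantSeq 3′ FWD libraries and read single-end (NextSeq 500). The authors deposited 1 table of CPM, scaled to 1000000 reads per library over 20756 Ensembl genes. GRCm38 was the build per the labels. The study names a Lexogen QuantSeq pipeline (BlueBee) in its software list without tying it to these libraries, and the kit came with optional molecular identifiers. Aligner, counter, annotation and whether identifiers were collapsed were not stated (not given in the sources used here). Values above 0 were whole multiples of 1 read (100% within 0.01), so reads were recovered.

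Symbols were matched for 20675 identifiers, and coordinates come from GENCODE M21. The 9558 genes that reached 5 CPM in 3 or more libraries were fitted with limma 3.58.1 (R 4.3.3) on log2(CPM + 1), which understates changes of low genes, with p-values adjusted by Benjamini-Hochberg and a threshold of 0.05. The recovered reads were tested with edgeR 4.0.16, DESeq2 1.42.0 and limma-voom as alternatives. Single ratios were compared by exact permutation. The limma fit was also run on simulated data, in which few genes changed and as many rose as fell. In these data 26.5% of all fitted genes were lower and 14.4% higher, so that run does not cover such a shift.

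Members and lists were chosen with earlier results of these data known. Values per library are given, within each role, for the 3 genes with the highest mean CPM, those with the lowest and highest log2 fold change and every gene that did not pass; of the other pathway lists the 3 genes with the smallest adjusted p are named. Other genes named were chosen after their values were seen. A planned description of protein sequences was not run. Members without a promoter sequence used here were Npm1, Rrp12, Tcof1, Rrs1, Fbl and Bop1.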

Additional observations from a re-analysis of the deposited data

How the results depend on the processing

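The count of member genes lower in sgPrkci was 44, and between 35 (DESeq2) and 44 under the other settings, and between 40 and 43 with any library left out; 0 were higher under all of them. Of the 44 calls 35 were kept in each of the 19 other fits that tested the gene, and the 9 others were lost with DESeq2, 5 of them (Polr1a, Polr1c, Dhx33, Imp4 and Rrp1b) in no other fit; Ddx18 and Utp15 were lost in 10 fits each. With DESeq2 RNA polymerase I genes lower fell to 3, other pathway genes lower to 46 and all genes lower to 1350, and a log2 fold change beyond 0.5 left 871 genes higher. The count of all genes lower ranged from 2062 to 2303 and of all genes higher from 968 to 1380 with a library left out. The lists then had 14 to 15 small-subunit, 11 to 14 large-subunit, 5 to 6 RNA polymerase I, 6 to 7 snoRNP, 3 nucleolar and 61 to 66 other pathway genes lower. The small- minus large-subunit difference of medians was 0.032, 0.072 with a filter of 10 CPM, and -0.012 to 0.11 with a library left out. Nop10 changed sign, without a call, on TMM-rescaled CPM (0.088), with quantile normalization (0.029), without rRNA-like genes (0.045), with edgeR (0.086), with DESeq2 (0.087) and with limma-voom (0.085). Protein composition was not run. No paired analysis was possible because the groups share no replicate numbers. Genes under about 10 CPM, such as Fbl, Heatr1 and Polr1e, rest on few reads per library, and intervals would cover counting error only.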
